A study of Homo sapiens with 6 samples.

Results

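The 37 genes described here decide whether a cell divides, pauses or dies: the p53 inhibitors, the cyclin-dependent kinase (CDK) inhibitors and growth arrest genes, the BCL2 family, the death receptors with their signalling complex, and the caspase-activating apoptosome. They were taken by gene name from a count table of 58735 entries, all 37 were present, and 33 had enough reads to be tested. RNA was measured in MDA-MB-231, an established human line from triple-negative breast cancer that resembles mesenchymal cells. One group received the vehicle DMSO for 72 h, and the other received 2 µM Azeliragon, a small-molecule inhibitor of the receptor RAGE, for the same time. Each group had 3 libraries, lettered a, b and c. The labels name no separate cultures, so a p-value here reflects how far libraries of 1 group vary, and that variation may be technical. By its title the study is about how RAGE and SNAIL act in the plasticity between epithelial and mesenchymal states.

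As background, CDK inhibitors bind cyclin-CDK complexes and hold cells before DNA replication. Programmed death has an intrinsic route, in which BH3-only proteins counteract BCL2-type survival proteins until BAX and BAK1 open the mitochondrial outer membrane, and an extrinsic route, in which ligands such as TRAIL engage death receptors that recruit FADD and CASP8. Breast cancer cells of the mesenchymal type are known for their response to TRAIL in culture. Transcript levels do not measure the activity of these proteins.

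Library totals ran from 41455979 to 44313584 counts, so 1 read was worth 0.0222 to 0.0241 CPM (counts relative to the library total, scaled by TMM). DMSO a stood apart from the other control libraries. On the first principal component, which held 37.6% of the variance, it lay at -0.23, between DMSO b and c (30.1 and 33.7) and the treated libraries (-23 to -19). For 18 of the 33 tested members DMSO a was nearer to the Azeliragon mean than to the mean of DMSO b and c, as for 58.9% of all genes tested. The line's own markers VIM, CD44, AXL, FOSL1, CAV1 and PLAU were all present, with a summed level of 6507 to 6978 CPM in DMSO and 6234 to 6425 CPM with Azeliragon. Of these 6, PLAU fell (-0.63, adjusted p 0.000183) and AXL rose (0.26, adjusted p 0.0297), the latter a call lost when any library but DMSO a was left out. Among 5 genes known to be low or absent in this line, CDH1 and PGR had at most 1 read in any library. GATA3 reached 21.1 to 28.8 CPM and went against that label. ESR1 had 0, 0 and 5 reads in DMSO a, b and c and 10, 9 and 14 reads with Azeliragon. These were too few for a test with all 6 libraries. FOXA1 had 4 to 28 reads per library. Without DMSO c, 1 gene of this list passed upwards. The 6 fibroblast markers summed to 19.6 to 22.3 CPM in DMSO and 11.3 to 13.3 CPM with Azeliragon, with FAP at 0 reads, and 3 of them (COL1A1, COL1A2 and PDGFRB) fell. The part of these marker changes in the results below was not tested. The 5 leukocyte markers summed to at most 0.396 CPM.

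With Azeliragon, 2 of the 33 tested members rose and 2 fell at an adjusted p under 0.05 in edgeR's quasi-likelihood test (Benjamini-Hochberg over 16081 genes). TNFRSF10A and TNFRSF10D, a pair of TRAIL receptors, rose, and the CDK inhibitor CDKN2C and the BH3-only gene BMF fell. The other 29 did not pass. In RNA from whole cultures, fewer cells with a transcript and less RNA per cell cannot be told apart. Of all genes tested, 6.27% passed in either direction, 2.75% upwards and 3.53% downwards. The median log2 fold change was -0.06 over the 33 members, with 11 values positive and 22 negative, and -0.00 over all genes. In 11 of the 33 members the libraries of the groups did not overlap, where 25.3% of all genes tested showed no overlap. All changes are Azeliragon over DMSO on the log2 scale, with the standard error (SE) of the fit and n = 3 libraries per group.

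**Figure D1:**
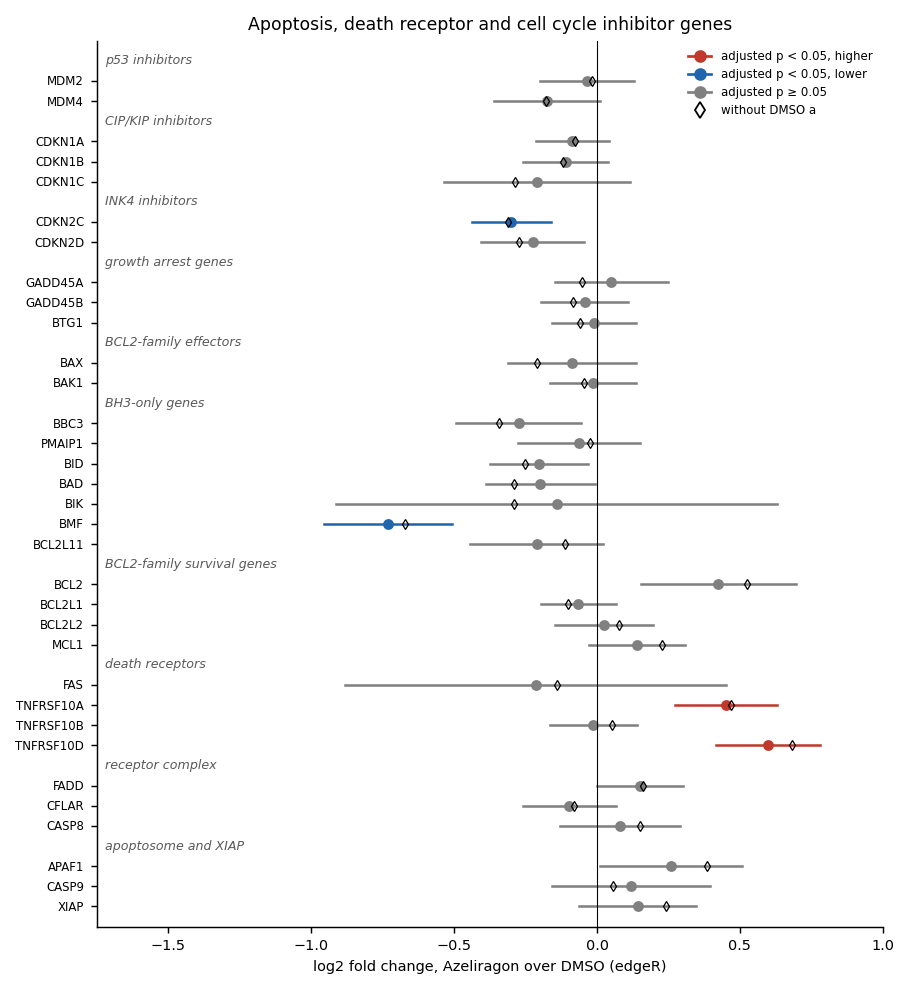
Log2 fold change of each of the 33 tested genes (horizontal axis, Azeliragon over DMSO), grouped by role. Circles are edgeR estimates from all 6 libraries with 95% confidence intervals, and open diamonds are estimates without DMSO a. TNFRSF10A and TNFRSF10D lie to the right of 0, CDKN2C and BMF to the left, and the 7 BH3-only genes are all on the negative side although 1 of them passed.

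Levels can be set side by side per kilobase of merged exons. BCL2L1, which encodes the survival protein BCL-XL, was the most abundant member on that scale, at 182 CPM per kb in DMSO and 174 with Azeliragon. MCL1 and BAX followed at 84.0 and 81.5 CPM per kb in DMSO. Lowest among the 33 tested members stood FAS, with 0.327 CPM per kb in DMSO and 0.282 with Azeliragon. BIK and BCL2 came next at 0.625 and 1.01 CPM per kb in DMSO.

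**Figure D2:**
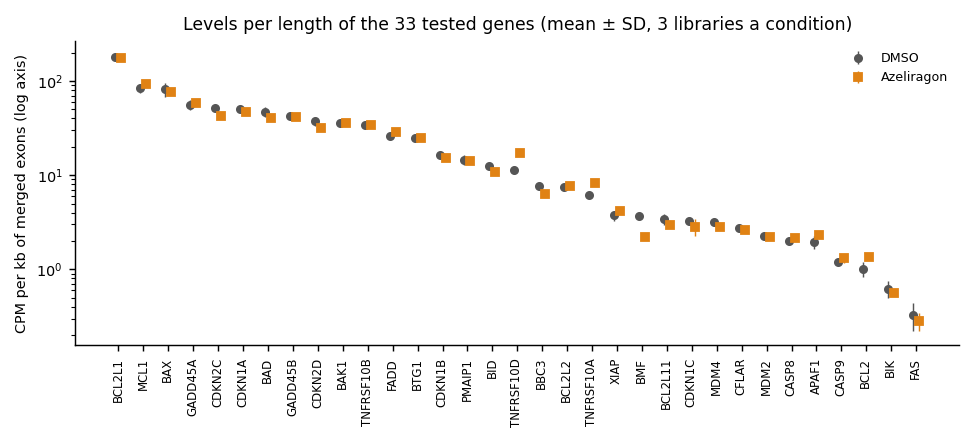
Level of the 33 tested genes per kilobase of merged exons (log axis), ordered by their DMSO mean. Points are means and bars the SD over 3 libraries. The genes span BCL2L1 at 182 to FAS at 0.327 CPM per kb in DMSO, and for most of them the change with Azeliragon is small beside that range.

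MDM2 and MDM4, which restrain p53, did not pass. MDM2, itself a p53 target, had 30.8, 30.0 and 29.4 CPM in DMSO a, b and c and 28.3, 29.1 and 30.6 CPM with Azeliragon. Those groups overlapped, and the difference was -0.04 (SE 0.08, 95% interval -0.20 to 0.13). MDM4 differed by -0.17 (SE 0.08), from 35.1 ± 3.10 to 31.1 ± 1.19 CPM (mean ± SD).

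Among CDK inhibitors of the CIP/KIP type, which bind several cyclin-CDK complexes, none of the 3 passed, and none had an unadjusted p under 0.05. CDKN1A (p21), the best known p53 target of cell cycle arrest, had 155, 150 and 153 CPM in DMSO and 141, 148 and 142 CPM with Azeliragon. The treated libraries were all lower, yet the difference of -0.09 (SE 0.06) had an adjusted p of 0.452. CDKN1B (p27) likewise showed no overlap, with 45.9 ± 0.631 against 42.5 ± 1.24 CPM and a difference of -0.11. CDKN1C (p57) had 8.12 ± 0.843 and 7.02 ± 1.39 CPM.

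The INK4 inhibitors bind CDK4 and CDK6. CDKN2A (p16 and ARF) and CDKN2B (p15) had 0 reads in all 6 libraries, which allows up to 3 counts per library, or 0.0665 to 0.0723 CPM (counting error only). MDA-MB-231 is known to lack CDKN2A. Of 6 genes near it on chromosome 9, MTAP, CDKN2B-AS1, DMRTA1, ELAVL2 and KLHL9 also had 0 reads, and FOCAD had 1.02 to 2.02 CPM. CDKN2C (p18) was the abundant INK4 transcript. It had 170, 170 and 179 CPM in DMSO and 149, 135 and 137 CPM with Azeliragon. Every treated library was below every control, and the transcript fell by 0.30 on the log2 scale (SE 0.06, adjusted p 0.0146), which is 18.8% lower. This call was lost when DMSO b, Azeliragon b or Azeliragon c was left out, with an adjusted p of up to 0.119, while the direction was kept. CDKN2D (p19) had 52.5, 53.2 and 62.7 CPM in DMSO and 46.2, 47.8 and 50.1 CPM with Azeliragon. Its groups did not overlap either, and the difference of -0.23 (SE 0.08) had an adjusted p of 0.144.

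CDKN2C lies at chr1:50960745-50974633 on the plus strand (GRCh38, GENCODE 29), and BMF, the other member that fell, at chr15:40087890-40108892 on the minus strand. Both are protein coding. The 250 bases before each gene's RefSeq start are shown to set the promoters of the falling members side by side, 5′ to 3′ on the gene's strand, from RefSeq (GRCh38.p14), at chr1:50960495-50960744 and chr15:40108880-40109129. The RefSeq start of BMF lies a few bases inside the GENCODE gene, so that window overlaps the gene's first bases as GENCODE gives them. Capitals mark the single motif match found in each.
CDKN2C promoter: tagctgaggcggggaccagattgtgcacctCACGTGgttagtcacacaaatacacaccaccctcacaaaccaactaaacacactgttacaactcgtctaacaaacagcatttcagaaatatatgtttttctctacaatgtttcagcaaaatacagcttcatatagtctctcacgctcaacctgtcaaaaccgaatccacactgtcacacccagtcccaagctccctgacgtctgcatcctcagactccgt
BMF promoter: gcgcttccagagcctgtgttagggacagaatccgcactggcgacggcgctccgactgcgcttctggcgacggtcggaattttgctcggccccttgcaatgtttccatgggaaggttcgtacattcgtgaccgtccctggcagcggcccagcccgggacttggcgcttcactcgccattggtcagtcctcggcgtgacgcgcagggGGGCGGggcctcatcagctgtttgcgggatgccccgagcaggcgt
The capitals are an E-box (CACGTG) that begins 220 bases before the RefSeq start of CDKN2C and a GC box (GGGCGG) that begins 45 bases before the RefSeq start of BMF. The CDKN2C window had a GC content of 45.6% and the BMF window 65.2%, where the median over all promoters was 58.0%. Both strands were searched for 7 motifs, none of which contains another. Beside these boxes they were the E2F motif in the form TTTCGCGC or the form TTTGGCGC, the cyclic AMP response element with the letters TGACGTCA, the FOXO motif with the letters GTAAACA, the AP-1 motif with the letters TGAGTCA, and the TATA box with the letters TATAAA. Of 35116 promoters of this length, the GC box was in 42.6% and the E-box in 6.34%. Among 29 members with a RefSeq promoter here, 20 held a GC box and 4 an E-box. The rising members TNFRSF10A and TNFRSF10D were not among these 29. For each member only the first listed RefSeq start was used. These matches describe the letters and show no binding.

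The growth arrest genes GADD45A, GADD45B and BTG1 did not pass, and none had an unadjusted p under 0.05. GADD45A, a stress sensor that also binds p21, averaged 116 CPM in DMSO and 120 CPM with Azeliragon (0.05, SE 0.09), and its groups overlapped. GADD45B, its relative, had 91.3 ± 6.06 and 88.6 ± 3.58 CPM, and BTG1, an antiproliferative gene, had 120 ± 7.72 and 119 ± 4.06 CPM. BTG2 had 3 to 14 reads per library and was not tested.

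BAX and BAK1, the pore-forming effectors, did not pass. BAX had 173, 217 and 243 CPM in DMSO and 207, 201 and 189 CPM with Azeliragon. The control libraries spread on both sides of all treated ones, and the difference was -0.09 (SE 0.10, 95% interval -0.31 to 0.14). Its ratio to BCL2L1 per kilobase was 0.447 ± 0.0541 in DMSO and 0.443 ± 0.0222 with Azeliragon. BAK1 had 79.7 ± 4.83 and 78.9 ± 2.83 CPM.

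BMF carried the largest change among the 33 members, and it is 1 of 7 BH3-only genes, whose products neutralise survival proteins. BMF is known to be released from the actin and myosin skeleton when cells lose attachment. It had 21.8, 18.3 and 20.4 CPM in DMSO and 11.3, 11.7 and 13.3 CPM with Azeliragon. The lowest control library stood above the highest treated one, and BMF fell by 0.73 on the log2 scale (SE 0.10, 95% interval -0.96 to -0.51, adjusted p 0.00116), which is 39.8% lower. The call held in all 15 alternative settings tried. An antisense gene, BMF-AS1, covers 8.46% of its exon bases and had 0 reads.

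The other BH3-only genes had estimates below 0, and none of those 6 passed. BBC3 (PUMA) and PMAIP1 (NOXA) are p53 targets. BBC3 had 22.1, 24.2 and 27.1 CPM in DMSO and 18.3, 20.9 and 21.5 CPM with Azeliragon, without overlap (-0.27, SE 0.10, adjusted p 0.143). BID, which CASP8 cleaves to link the extrinsic and intrinsic routes, had 51.7, 55.4 and 59.9 CPM in DMSO and 45.2, 49.6 and 50.3 CPM with Azeliragon, again without overlap (-0.20, adjusted p 0.170). BAD, which growth factor signalling inactivates by phosphorylation, had 69.7, 81.6 and 89.4 CPM in DMSO and 71.5, 71.1 and 67.2 CPM with Azeliragon. DMSO a lay within the treated range, and the difference was -0.20 (adjusted p 0.224). PMAIP1 had 32.7 ± 4.04 and 31.3 ± 1.62 CPM. BCL2L11 (BIM), the relative often named beside BMF, had 22.9 ± 3.11 and 19.8 ± 1.16 CPM, a difference of -0.21 (SE 0.11). Per kilobase the ratio of BMF to BCL2L11 went from 1.09 ± 0.153 in DMSO to 0.751 ± 0.0262 with Azeliragon, without overlap. BIK had 21 to 30 reads per library. BAD shares 23.7% of its exon bases with GPR137 on the opposite strand and BCL2L11 10.9% with MIR4435-2HG, and since the strand setting of the counting is not given in the sources used here, their values are uncertain.

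The survival genes had estimates on both sides of 0 and none of the 4 tested passed, with 1 at an unadjusted p under 0.05. That gene, BCL2, lies at chr18:63123346-63320128. It had 13.5, 12.7 and 9.46 CPM in DMSO and 16.4, 15.6 and 15.8 CPM with Azeliragon. All treated libraries were above all controls, with DMSO c lowest, and the difference of 0.42 (SE 0.12, 95% interval 0.15 to 0.69) had an adjusted p of 0.0683. BCL2 passed with DESeq2, without the low-count filter and with the GC and length trend removed. BCL2L1 had 571, 604 and 631 CPM in DMSO and 568, 584 and 572 CPM with Azeliragon, which overlapped (-0.07, SE 0.06). An antisense gene, ABALON, covers 43.0% of its exon bases but had 3664 reads against 152681 over the 6 libraries. MCL1, a short-lived survival protein, had 410, 358 and 334 CPM in DMSO and 423, 396 and 394 CPM with Azeliragon. DMSO a lay among the treated libraries, and the difference was 0.14 (SE 0.08, adjusted p 0.346). BCL2L2 (BCL-W) had 31.3 ± 2.01 and 31.9 ± 0.771 CPM. BCL2A1 had 0 to 4 reads per library and was not tested.

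The death receptors held both members that rose. TNFRSF10D (DcR2), a TRAIL receptor with a truncated death domain that binds the ligand without signalling death, had 45.2, 37.5 and 39.1 CPM in DMSO and 64.1, 61.0 and 59.0 CPM with Azeliragon. The groups did not overlap, and the transcript rose by 0.60 on the log2 scale (SE 0.08, 95% interval 0.42 to 0.78, adjusted p 0.00113), 1.51-fold, a call that held in all 15 alternatives. TNFRSF10A (DR4), which does signal death, had 18.4, 17.9 and 17.6 CPM in DMSO and 24.6, 23.3 and 25.8 CPM with Azeliragon. It rose by 0.45 (SE 0.08, adjusted p 0.00627), 1.37-fold, and the call was lost without Azeliragon c alone (adjusted p 0.0525). TNFRSF10B (DR5), the other signalling TRAIL receptor, had 193, 171 and 168 CPM in DMSO and 178, 168 and 181 CPM with Azeliragon. Those groups overlapped, and the difference was -0.01 (SE 0.07, 95% interval -0.17 to 0.14).

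Per kilobase TNFRSF10B was the most abundant TRAIL receptor, with 34.4 CPM per kb in DMSO and 34.0 with Azeliragon, against 11.5 and 17.4 for TNFRSF10D and 6.09 and 8.33 for TNFRSF10A. The ratio of TNFRSF10D to TNFRSF10B went from 0.333 ± 0.0119 to 0.510 ± 0.0297 and that of TNFRSF10A to TNFRSF10B from 0.178 ± 0.00954 to 0.245 ± 0.00399, both without overlap. The ratio of TNFRSF10D to TNFRSF10A was 1.88 ± 0.154 and 2.09 ± 0.154 and overlapped. The receptors are neighbours on the minus strand of chromosome 8 (GRCh38), TNFRSF10B at 23020133 to 23069179, TNFRSF10D at 23135588 to 23164030 and TNFRSF10A at 23190452 to 23225126. Within 250 kb on either side, a window chosen after the values were seen, 16 of 25 genes were tested, and TNFRSF10D and TNFRSF10A were the 2 that passed. TNFRSF10A shares 7.59% of its exon bases with the antisense gene TNFRSF10A-AS1, which had 489 reads against 5510, and 9.01% with AC100861.1 on the opposite strand, which had 697. Their log2 fold changes were 0.45 (adjusted p 0.370) and 0.20 (adjusted p 0.558). With the strand setting not given, the value of TNFRSF10A is uncertain too, and the part of these overlaps in its rise was not tested. FAS, the receptor of FAS ligand, had 1.53, 1.76 and 0.881 CPM in DMSO and 1.26, 0.917 and 1.42 CPM with Azeliragon. It had 38 to 76 reads per library, and the interval of its difference ran from -0.88 to 0.45. FAS shares 8.9% of its exon bases with ACTA2 on the opposite strand, which had 224 reads against 336. The value of FAS is therefore uncertain as well.

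**Figure D3:**
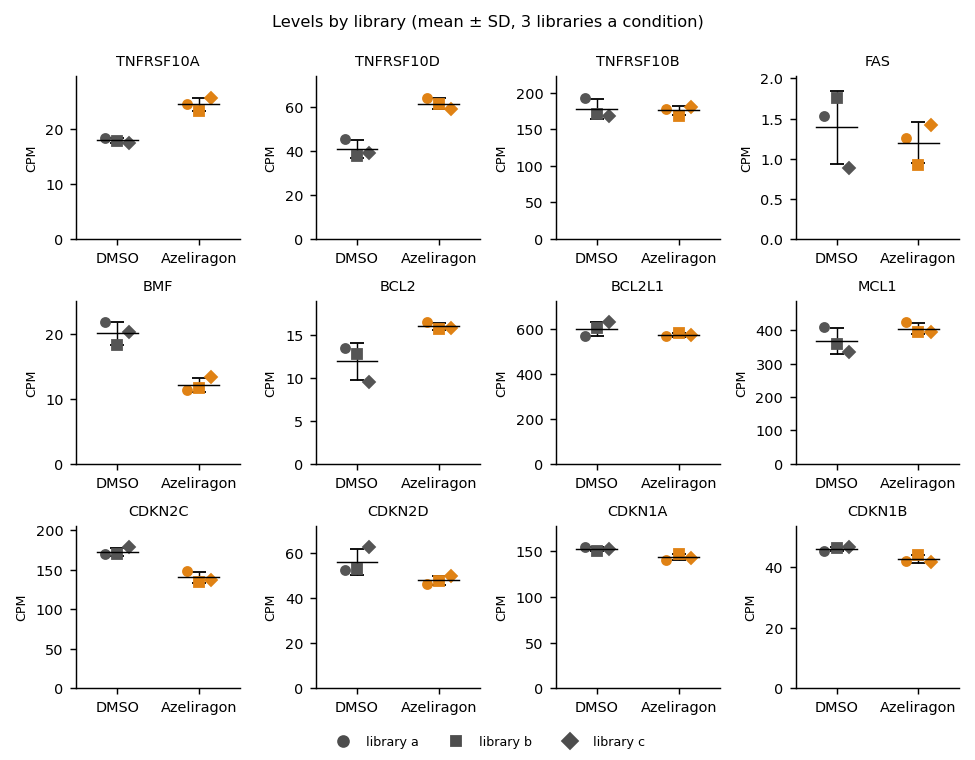
CPM in every library for 12 members (vertical axes from 0), with DMSO in grey and Azeliragon in orange and marker shape for the library letter. Bars are the mean and SD of 3 libraries. TNFRSF10A, TNFRSF10D and BCL2 have all treated libraries above all controls, BMF, CDKN2C, CDKN2D, CDKN1A and CDKN1B have them below, and TNFRSF10B, FAS, BCL2L1 and MCL1 overlap.

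The proteins that act at the receptors did not pass, and none of the 3 had an unadjusted p under 0.05. FADD, the adaptor, had 48.0 ± 0.507 CPM in DMSO and 53.3 ± 2.61 CPM with Azeliragon without overlap (0.15, SE 0.07, adjusted p 0.247). It passed in edgeR with the GC and length trend removed (0.23, adjusted p 0.0462). An antisense gene with 0 reads, AP000879.1, covers 54.9% of its exon bases. CASP8, the initiator caspase, had 16.0, 14.7 and 13.3 CPM in DMSO and 15.9, 15.7 and 14.9 CPM with Azeliragon, which overlapped (0.08, SE 0.10). CFLAR (FLIP), which blocks CASP8, had 64.0, 59.6 and 64.3 CPM in DMSO and 61.5, 54.0 and 60.3 CPM with Azeliragon. Per kilobase the ratio of CFLAR to CASP8 was 1.38 ± 0.150 and 1.22 ± 0.100 and overlapped.

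APAF1, CASP9 and XIAP control the step after cytochrome c release, and all had positive estimates that did not pass. APAF1, the scaffold of the apoptosome, had 18.0, 15.1 and 13.1 CPM in DMSO and 19.4, 18.3 and 17.6 CPM with Azeliragon. DMSO a again lay within the treated range, and the difference was 0.26 (SE 0.11, adjusted p 0.227). XIAP, which inhibits caspases, had 38.3, 33.1 and 30.2 CPM in DMSO and 36.1, 36.5 and 39.6 CPM with Azeliragon (0.14, SE 0.09). CASP9, the caspase the apoptosome activates, had 6.35 ± 0.478 and 6.89 ± 0.743 CPM.

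The number of members that passed moved with DMSO a. Without it 6 members rose and 7 fell, where 23.7% of 16508 genes tested passed. The additions were BCL2, MCL1, APAF1 and XIAP upwards and CDKN2D, BAX, BBC3, BID and BAD downwards. Among these 9, MCL1 had a log2 fold change of 0.23 (adjusted p 0.00153), BCL2 0.53 (adjusted p 0.00132), BAX -0.21 (adjusted p 0.00603) and BAD -0.29 (adjusted p 0.000816) in that edgeR fit. The longest transcripts of the 4 additions that rose had 3932 to 8591 bases and a GC content of 38.98% to 45.61%. Those of the 5 that fell had 1157 to 2495 bases and 49.7% to 69.7%. In that fit the log2 fold change correlated with log2 length at 0.324 over the 33 members and 0.104 over 16067 genes. With GC content the correlations were -0.451 and -0.072. When the trends of the libraries on GC content and on length were removed as well, a setting chosen after seeing the data, CDKN2D, BAX and XIAP no longer passed. BCL2, MCL1, APAF1, TNFRSF10A and TNFRSF10D still passed upwards and CDKN2C, BBC3, BID, BAD and BMF downwards. In that setting FADD was added upwards and MDM2, MDM4 and CFLAR downwards. Of these, FADD also passed with the trend removed and DMSO a kept. The spread between libraries was larger in DMSO for 24 of 33 members, with a median coefficient of variation of 8.87% against 4.19% with Azeliragon, as for 68% of all genes.

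**Figure D4:**
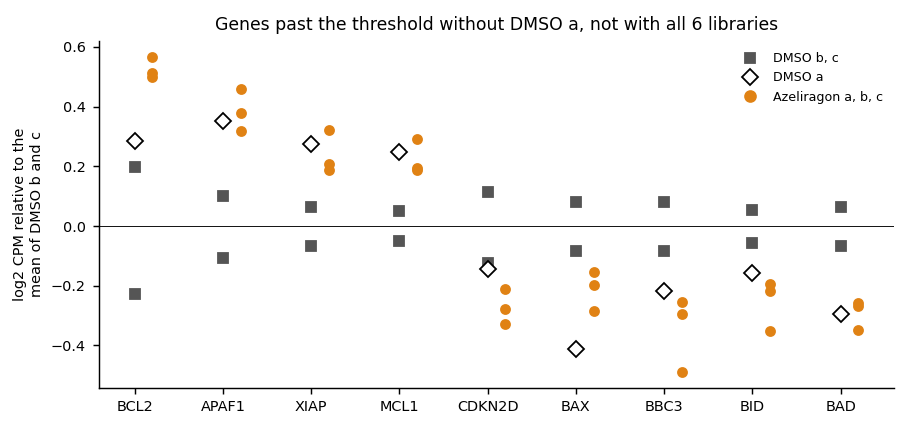
Log2 CPM of 9 members relative to the mean of DMSO b and c (line at 0). Grey squares are DMSO b and c, open diamonds DMSO a and orange circles the Azeliragon libraries. For BAX, DMSO a lies at -0.41, below all treated libraries, and for APAF1 at 0.35, within their range of 0.32 to 0.46, whereas for BCL2 it lies at 0.28, below their range of 0.50 to 0.57.

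Outside the 37 members, a list held further ligands, receptors and adaptors of the death receptor pathway. Among its 12 tested genes 4 fell and none rose in edgeR, where 3.53% of all genes tested fell and 2.75% rose. At an unadjusted p under 0.05 it had 5 falls and 0 rises, and DESeq2 and limma-voom each gave 4 falls and 0 rises. The shares over all genes also apply to the lists that follow. All these lists were written with earlier results of these data known. Their counts beside those shares are therefore a description and no test of an excess. The share of all genes at the unadjusted threshold is not given here. TNFSF10, which encodes TRAIL, the ligand of the receptors that rose, had 3.32, 4.17 and 3.50 CPM in DMSO and 0.977, 1.22 and 0.989 CPM with Azeliragon. Every treated library was below every control, and TNFSF10 fell by 1.78 on the log2 scale (SE 0.20, adjusted p 0.000218), or 71.0%, on 41 to 180 reads per library. Of the other receptors in the list, TNFRSF1A, TNFRSF1B and TNFRSF21 fell, while TNFRSF11B (adjusted p 0.221), TNFRSF25 (adjusted p 0.489) and TNFRSF10C did not pass. TNFRSF1B (TNFR2) went from 40.1 to 26.5 CPM (-0.60, SE 0.08, adjusted p 0.000772), and TNFRSF1A (TNFR1) from 175 to 132 CPM (-0.41, SE 0.06, adjusted p 0.00159). TNFRSF21 (DR6) went from 145 to 114 CPM (-0.35, SE 0.06, adjusted p 0.00608), a call lost without Azeliragon b. TRAF2, with the most reads among those that did not pass, had 85.6 and 82.8 CPM. RIPK3, a kinase of necroptosis, had 0 reads in every library.

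Of 23 tested genes in a list of further p53 targets, 1 rose and 1 fell. DDB2, a DNA damage sensor, fell by 0.56 (SE 0.09, adjusted p 0.00294), with 33.8, 38.7 and 39.5 CPM in DMSO and 27.3, 25.1 and 23.8 CPM with Azeliragon. AEN, a p53-induced nuclease, rose by 0.37 (SE 0.07, adjusted p 0.00719), from 89.2 to 115 CPM, a call lost without DMSO b or Azeliragon c. SFN (14-3-3 sigma), the most counted gene of the list that did not pass, had 197 and 205 CPM. Several members are also known p53 targets. Of these TNFRSF10A and TNFRSF10D rose, and CDKN1A, MDM2, BBC3, PMAIP1, BAX, FAS, GADD45A, APAF1 and TNFRSF10B did not pass with all 6 libraries.

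Among 15 caspases, inhibitors of apoptosis and mitochondrial factors, CYCS (cytochrome c) rose by 0.27 (SE 0.06, adjusted p 0.0223), from 152 to 184 CPM, and was the 1 gene that passed. No gene of that list fell in edgeR or limma-voom and 1 did in DESeq2. At an unadjusted p under 0.05 in edgeR the list had 2 rises and 1 fall. That fall was CASP6, from 19.4 to 14.4 CPM without overlap (-0.43, SE 0.12, adjusted p 0.0555). CASP6 passed downwards in edgeR without DMSO a (adjusted p 0.000375). PARP1, a caspase substrate, had 332 and 365 CPM and did not pass. Of 20 cyclins, CDKs and RB-pathway genes, CCND1 (cyclin D1), a partner of the kinases that CDKN2C inhibits, rose by 0.28 (SE 0.06, adjusted p 0.0157), from 736 to 895 CPM, while CCNB1 had 286 and 275 CPM and did not pass. The CYCS and CCND1 calls were each lost without DMSO b or any of the Azeliragon libraries. None of 5 further BCL2-family genes and none of 4 relatives of GADD45A and BTG1 passed in edgeR, DESeq2 or limma-voom with all 6 libraries, the low-count filter and no trend removed, with 1 fall in the former and 1 rise in the latter at an unadjusted p under 0.05. BNIP3 had 151 and 138 CPM and TOB2 52.9 and 63.6 CPM. Without DMSO a, TOB2 passed upwards (0.39, adjusted p 5.85e-05) and BNIP3 downwards (-0.17, adjusted p 0.0129).

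**Figure D5:**
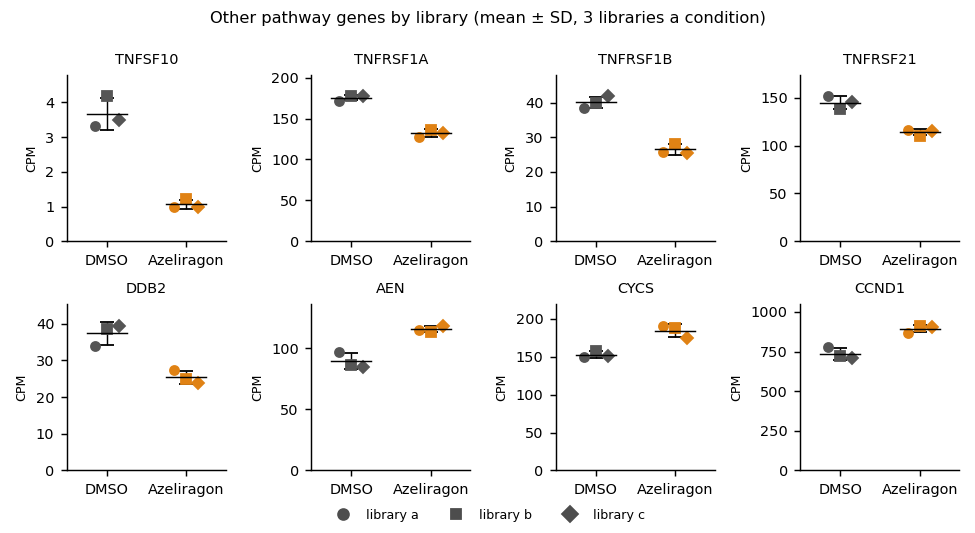
CPM in every library for 8 pathway genes outside the 37 members (vertical axes from 0, DMSO in grey, Azeliragon in orange, bars the mean and SD of 3 libraries). TNFSF10, TNFRSF1A, TNFRSF1B, TNFRSF21 and DDB2 have all treated libraries below all controls, and AEN, CYCS and CCND1 have them above.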

How the data were processed

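Polyadenylated RNA of 6 libraries was sequenced, and the authors deposited raw counts per gene. STAR 2.6.1d, featureCounts 1.5.0-p3, limma and GRCh38 are named, without their roles, per the submitters' processing notes. For the annotation, the strand setting and the handling of multiply matching reads, the settings were not given in the sources used here. Names were matched to GENCODE 29 (58722 of 58735 entries). The 2 entries whose names had become numbers held 0% of counts and were left out. The 1741 entries that share a name stayed in the fit as separate entries. For a listed gene the entry with most reads was used.

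Genes passing filterByExpr of edgeR 4.0.16 were scaled by TMM and tested with glmQLFit and glmQLFTest, treatment being the only term. Every pair of libraries within a group differed by more than sampling noise (chi-square per degree of freedom at least 4.60). Alternatives were RLE factors, library totals, no filter, DESeq2 1.42.0, limma-voom (limma 3.58.1), a stricter filter that asked for 1 CPM in at least 3 libraries with 50 counts on average, the replicate block, removal of the GC and length trend, and each library left out. R 4.3.3, Python 3.11.15 and matplotlib 3.10.9 were used, and the fit was tested on simulated data.

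The members and lists were chosen with earlier results of these data known. All members are named. Each library's values are given for members that passed with all libraries or without DMSO a, and for CDKN1A, MDM2, CDKN2A, CDKN2B, BAX, BCL2L1, MCL1, FAS, the TRAIL receptors and CASP8. From each other pathway list come the genes that passed, the most counted gene that did not, and some others. Some genes are not reported here.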

Additional observations from a re-analysis of the deposited data

How the results depend on the processing

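Of 494 member estimates over 15 alternatives, 449 kept call and direction, 4 were weaker, 23 stronger and 18 reversed, and 24 of 33 members kept their direction in all. BMF and TNFRSF10D passed in all 15. The count of 1009 genes that passed became 1685 without the filter, 1710 with the GC and length trend removed, 3693 with that trend removed and DMSO a left out, and 445 to 3916 with 1 library left out. Leaving out DMSO b gave 473 genes, Azeliragon a 445, Azeliragon b 500 and Azeliragon c 448. Members that rose numbered 4 with the trend removed, 6 with the trend removed and DMSO a left out, and 1 to 6 with 1 library left out. Members that fell numbered 8 and 1 to 7 in the last 2 of these settings. DESeq2 called 1420 genes. The cause was not tested.

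Reversals were all within 0.07 of 0 on the log2 scale. With the trend removed GADD45B was at 0.0365 and BAK1 at 0.0586. With DMSO a left out as well, CDKN1A was at 0.0094, GADD45B 0.0192, BAK1 0.0454, PMAIP1 0.0659 and TNFRSF10B 0.0153. Over the fits with 1 library left out, the estimates with a reversal ran from -0.0529 to 0.116 for GADD45A, -0.0835 to 0.0103 for GADD45B, -0.0583 to 0.0338 for BTG1, -0.2113 to 0.0274 for BAX, -0.0472 to 0.0352 for BAK1, -0.1619 to 8e-04 for PMAIP1, -0.0138 to 0.0767 for BCL2L2 and -0.0519 to 0.0529 for TNFRSF10B.

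Across alternatives the list of p53 targets had 0 to 4 rises and 1 to 3 falls, the death receptor list 0 rises and 3 to 5 falls, the list of caspases and mitochondrial factors 0 to 3 rises and 0 to 2 falls, the cyclin list 0 to 4 rises and 0 to 1 falls, the further BCL2-family genes 0 rises and 0 to 1 falls, and the relatives of GADD45A and BTG1 0 to 1 rises (1 without the filter, with the trend removed, and without DMSO a) and 0 falls. Libraries of the same letter had correlations of deviations from the group mean of -0.0437 to 0.0266, and those of different letters -0.0818 to 0.0641. With 3 libraries per group these values cannot show whether a letter marks a shared culture or day. With the replicate block 908 genes passed, and 2 members rose and 2 fell.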
